A study of Mus musculus with 9 samples.

Results

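The proteasome genes of the mouse were followed through fatty acid loading and sinomenine treatment of AML12 cells, a hepatocyte line derived from mouse liver. Genes were taken by name, as every symbol that begins with Psma to Psmg and a digit, leaving out the interferon-induced catalytic subunits, pseudogenes and genes with a mean below 1 FPKM (fragment counts corrected for gene length and sequencing depth). Of 51 genes that matched by name, 3 were pseudogenes, 1 was the interferon-induced Psmb10 and 2 lay below the limit, which left 45 of the 11659 genes tested and of the 30350 genes in the table. The 2 low genes were Psma8, the testis form of an alpha subunit, with at most 0.0136 FPKM in any library, and Psmb11, the thymus form of a beta subunit, with at most 0.00617 FPKM. The lowest gene kept was Psmg3, at 1.71 FPKM.

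The 45 genes comprised 7 alpha and 7 beta subunits of the core, 6 ATPases and 3 other subunits of the base, 8 lid subunits, 6 genes of other activators or inhibitors, 7 assembly chaperones, and Psmc3ip. Psmc3ip shares only the start of its symbol with the others and encodes a recombination protein. The core, base and lid together gave 31 subunits of the complete complex. Sem1 of the lid and Adrm1 of the base carry other symbols and were kept among the partner genes. The classes and the lists of partner genes were drawn up with earlier results of the same data known.

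The proteasome degrades proteins tagged with ubiquitin and so sets the pace of most regulated protein turnover in the cell. Its barrel-shaped core holds the proteolytic sites in a pair of beta rings, behind a pair of alpha rings that gate the entrance. On either end sits a regulatory particle, in which the base unfolds substrates with a ring of ATPases and the lid removes ubiquitin. Subunits are made in fixed ratios and put together with the help of chaperones, and their genes are jointly induced by the transcription factor NFE2L1 when proteasome activity falls short.

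The study held 3 groups of 3 libraries. NC cells were kept in DMEM/F12, FFA cells in DMEM/F12 with free fatty acids, and FFA-SIN cells in free fatty acids for 24 hours and then in free fatty acids with sinomenine, a plant alkaloid, at 200 µM for 48 hours. The labels name neither the fatty acids nor the duration of the NC and FFA cultures, so treatment and time in culture cannot be told apart. Nothing in the labels says that replicates came from separate cultures, so the p-values reflect the spread among libraries, possibly a technical one.

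The deposited FPKM implied 43201346 to 71391844 reads per library, and even Psmg3 had at least 220 reads in each. A count of 0 reads over 2000 bases allows 0.0210 to 0.0347 FPKM by counting error alone. All 11 hepatocyte markers were tested, and their summed level was 3961 to 4029 FPKM in NC, 4239 to 4277 FPKM in FFA and 4581 to 4670 FPKM in FFA-SIN. The markers moved in both directions, since Alb, Trf, Ttr, Fgb and Apob were higher in FFA-SIN than in NC while Hnf4a, Krt8, Krt18, Cebpa and Apoa1 were lower. Of 6 stellate cell and fibroblast markers 1 was tested, and their sum moved with the groups (9.94 to 10.2 FPKM in NC, 5.65 to 6.67 FPKM in FFA, 3.14 to 3.35 FPKM in FFA-SIN). Nearly all of that sum was Des, while Lrat was at 0 in the NC and FFA libraries. Immune markers (2 of 5 in the table tested) summed to 5.70 to 6.84 FPKM in NC, 4.24 to 5.51 FPKM in FFA and 4.29 to 4.36 FPKM in FFA-SIN, with the pan-leukocyte marker Ptprc at most 0.0187 FPKM in any library. The 5 endothelial markers summed to at most 0.436 FPKM. The part of these markers in the results on proteasome genes was not tested, and in bulk RNA fewer cells of a type and less RNA per cell cannot be told apart.

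Within a group the libraries lay close together for these genes. The median coefficient of variation was 3.13% in NC, 2.09% in FFA and 2.42% in FFA-SIN. Psme2b varied most in NC (15.7%) and in FFA-SIN (13%), and Psmg4 varied most in FFA (14%). Replicate 2 was the lowest library of its group for 26 of the 45 genes in NC, 23 in FFA and 19 in FFA-SIN. It was also low for short genes in general, with median deviations from the group of -0.05 in NC, -0.02 in FFA and -0.02 in FFA-SIN on the log2 scale over genes under 1500 bases.

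In FPKM, which is per gene length, the subunits of the complete complex covered a 5.64-fold range. The highest means over all libraries were those of the ATPase Psmc5 (93.4 FPKM), the alpha subunit Psma6 (91.2 FPKM), the beta subunit Psmb4 (85.9 FPKM) and the base scaffold Psmd2 (84.4 FPKM). The lowest were those of the alpha subunit Psma3 (16.5 FPKM) and the lid subunit Psmd11 (17.4 FPKM). The length joins all annotated exons of a gene. It was 3894 bases for Psma3 and 6383 for Psmd11, against longest coding transcripts of 2846 and 2848 bases. For Psmc5 it was 1394 against 1316 bases. The order and range thus depend on the annotation as well as on RNA levels.

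**Figure D1:**
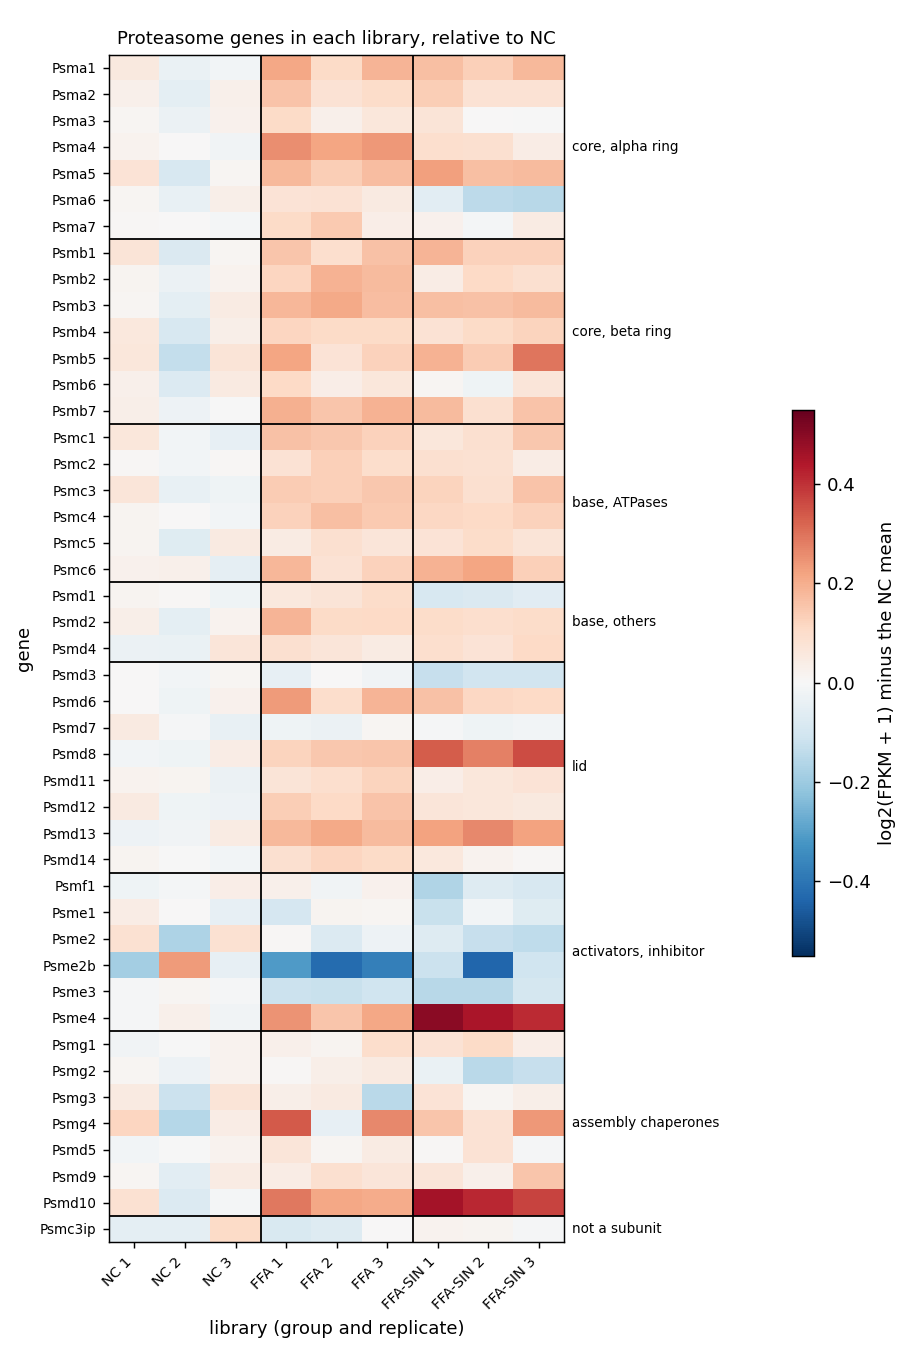
Each row is a proteasome gene and each column a library. Colour gives log2(FPKM + 1) minus the NC mean of that gene, from blue (below) to red (above). The FFA columns are red for most core, base and lid genes, and Psme4, Psmd10 and Psmd8 are darkest in the FFA-SIN columns.

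Between FFA and NC, most genes of the complete complex rose by a small amount. Of the 31 subunits, 23 rose, 0 fell and 8 did not pass the test (at an unadjusted p below 0.05, 26 and 0), where 37.5% of all tested genes changed, 19.1% upward and 18.4% downward (limma, adjusted p below 0.05). Their median log2 fold change (log2FC, on the log2(FPKM + 1) scale) was 0.13, within a range of -0.02 to 0.24, against a median of 0.00 over all genes. All FFA libraries lay above all NC libraries for 26 of the 31, as they did for 24.8% of all genes. The rise reached each layer of the complex, with 10 of 14 core, 7 of 9 base and 6 of 8 lid genes. Among the other genes, 1 of 6 activators or inhibitors rose and 2 fell, and 1 of 7 chaperones rose. Over all 45 genes this made 25 higher and 2 lower, at a median log2FC of 0.10.

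Highly expressed genes passed the test more often than all tested genes in this comparison, in both directions. Among the 3692 genes with at least 15 FPKM, 27.5% rose and 22.5% fell. Short genes ran higher, with a median log2FC of 0.06 over 873 genes under 1500 bases. The 9 proteasome genes of that length had a median of 0.14. In genes of 1500 to 4000 bases the medians were 0.02 over 2876 genes and 0.11 over 25 proteasome genes, and above 4000 bases they were -0.01 over 3742 genes and 0.10 over 9. Between FFA-SIN and FFA the same level class gave 19.4% and 23.3%, and between FFA-SIN and NC 32.9% and 30.4%. With trends on length and GC content removed from each library, 21 of the 31 subunits rose and 0 fell, and without NC replicate 2 the count was 20.

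Between FFA-SIN and FFA, few genes of the complex changed, and more of them fell than rose. Of the 31 subunits, 1 rose, 5 fell and 25 did not pass the test, where 31.2% of all tested genes changed, 13.9% upward and 17.3% downward. At an unadjusted p below 0.05 (limma), 1 subunit rose and 8 fell. The median log2FC of the subunits was -0.03, within -0.19 to 0.18, and that of all genes was -0.01. Over all 45 genes 3 rose (Psme4, Psmd8 and Psmd10) and 7 fell (Psma4, Psma6, Psmd1, Psmd3, Psmd14, Psmf1 and Psmg2). The FFA-SIN libraries lay wholly above the FFA libraries for 4 of the 45 genes and wholly below for 11, against 20.4% and 25.1% of all genes. Among the 31 subunits these counts were 2 and 9.

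Between FFA-SIN and NC, the genes of the complex that differed were mostly higher in FFA-SIN. Of the 31 subunits, 21 rose, 3 fell and 7 did not pass the test, where 51.3% of all tested genes changed, 24.7% upward and 26.5% downward. Their median log2FC was 0.10, within -0.12 to 0.32, against -0.01 over all genes. All FFA-SIN libraries lay above all NC libraries for 23 of the 31 and below them for 3, against 29.1% and 31% of all genes. The count of higher subunits fell to 13 without NC replicate 2, to 12 with every library scaled to the same FPKM sum and to 13 with no filter on low genes, while the count of lower subunits was 3 in each of these.

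FFA and NC, and FFA-SIN and NC, share the NC libraries, so their calls are not independent and are given side by side. Of the 25 genes higher in FFA than in NC, 3 were again higher in FFA-SIN than in FFA, 3 were lower in FFA-SIN than in FFA (Psma4, Psmd1 and Psmd14), and 19 did not pass that test. Among those 19, 16 were also higher in FFA-SIN than in NC. Psma6, Psmd3, Psmf1 and Psmg2 passed no test between FFA and NC and were lower in FFA-SIN than in both other groups. Psmb5, Psmc5 and Psmd4 passed only in the comparison of FFA-SIN with NC, as higher, and 11 genes passed no test. Whether the change differed between the comparisons was not tested for these patterns.

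**Figure D2:**
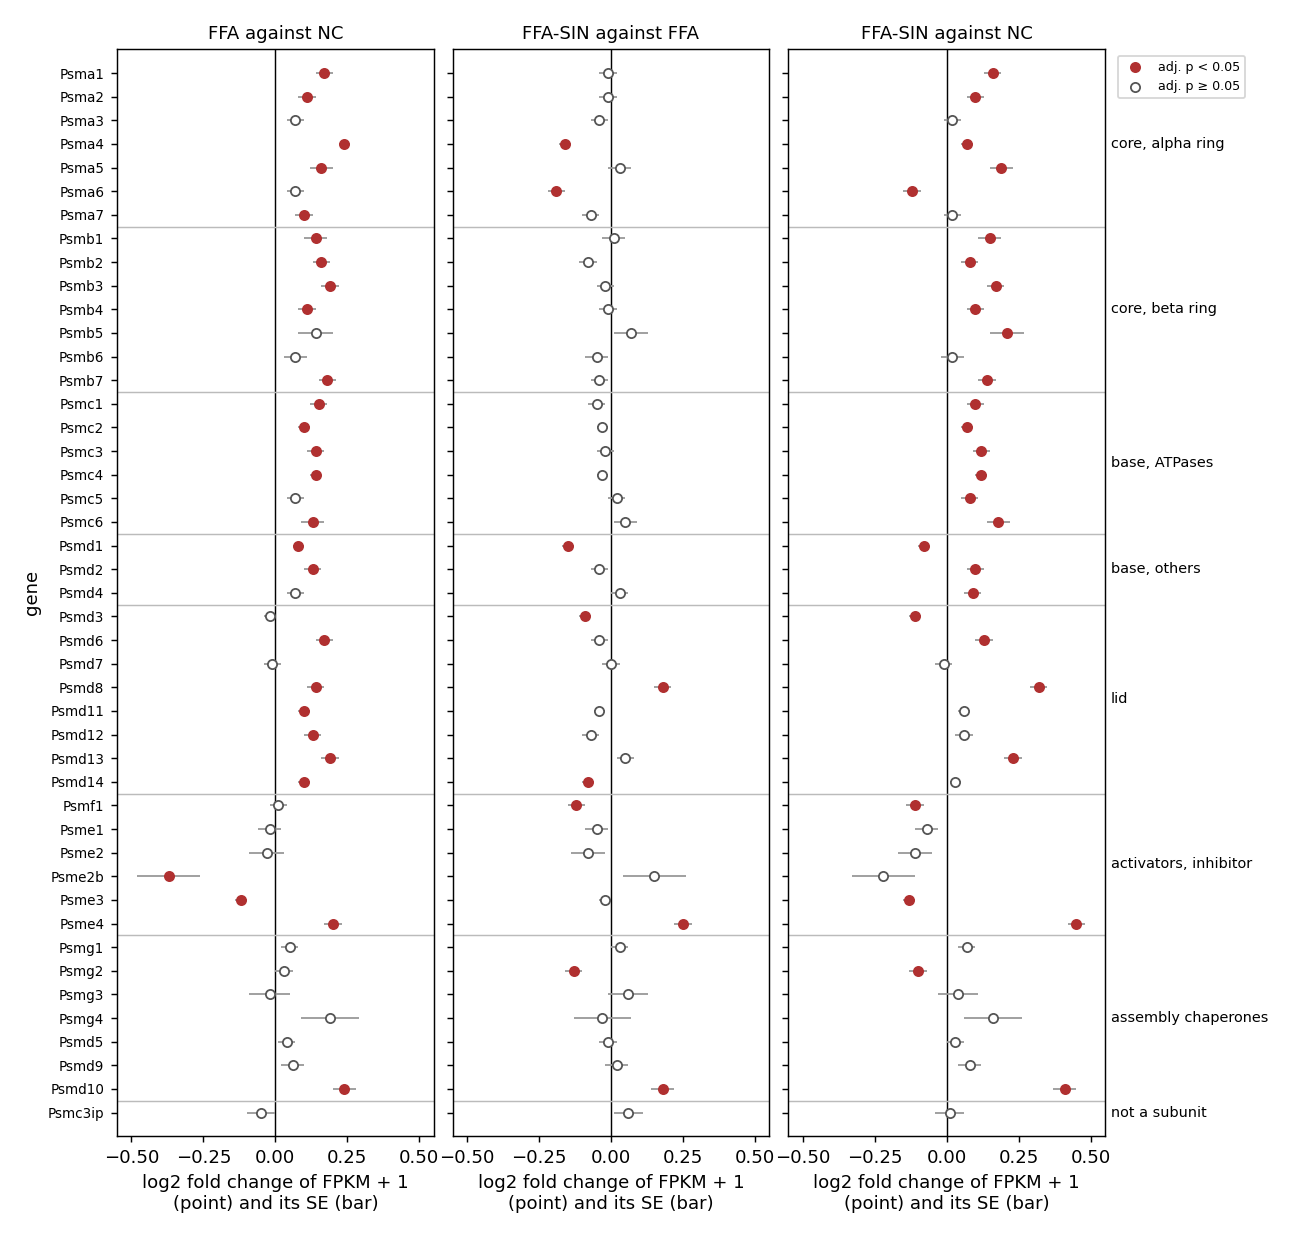
Each row is a proteasome gene, grouped by its place in the complex, and each panel is a comparison. Points give the log2 fold change of FPKM + 1 and bars its SE, filled where the adjusted p was below 0.05. Most core, base and lid points lie right of 0 in the comparisons with NC and near 0 between FFA-SIN and FFA.

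Among the alpha subunits, 5 of 7 rose between FFA and NC, and 2 fell between FFA-SIN and FFA. Psma4, whose counterpart in yeast carries the tail that closes the gate of the core, read 35.2, 34.8 and 34.2 FPKM in NC, 41.6, 40.5 and 41.1 FPKM in FFA, and 37.1, 37.0 and 35.7 FPKM in FFA-SIN. The FFA libraries were highest, the FFA-SIN libraries lay between, and no group overlapped another. It rose between NC and FFA (log2FC 0.24 ± 0.02, adjusted p = 5.16e-05) and fell between FFA and FFA-SIN (log2FC -0.16 ± 0.02, adjusted p = 0.000564). FFA-SIN remained above NC (log2FC 0.07 ± 0.02, adjusted p = 0.0218), a call that was lost in 5 of 17 alternatives.

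Psma6 was among the highest of the subunits in FPKM. It had 92.8, 89.6 and 94.2 FPKM in NC, 97.0, 97.4 and 95.5 FPKM in FFA, and 88.6, 83.2 and 82.8 FPKM in FFA-SIN. All FFA-SIN libraries were below all others. It fell against FFA (log2FC -0.19 ± 0.03, adjusted p = 0.00126), the lowest value of any of the 45 genes in that comparison, and against NC (log2FC -0.12 ± 0.03, adjusted p = 0.00856). Between FFA and NC its log2FC of 0.07 ± 0.03 did not pass the test (adjusted p = 0.103).

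Psma5 gave 55.7, 49.5 and 53.1 FPKM in NC, 59.8, 58 and 59.4 FPKM in FFA, and 61.8, 59.2 and 59.6 FPKM in FFA-SIN. NC was lowest, and the other groups overlapped. The rise over NC was 0.16 ± 0.04 in FFA (log2FC, adjusted p = 0.01) and 0.19 ± 0.04 in FFA-SIN (adjusted p = 0.00295). Psma3 was the lowest of the 31 in FPKM. It showed 16.3, 15.8 and 16.4 FPKM in NC, 17.5, 16.5 and 17.0 FPKM in FFA, and 17.1, 16.2 and 16.2 FPKM in FFA-SIN. FFA lay above NC without overlap, by a log2FC of 0.07 ± 0.03 that did not pass the test (adjusted p = 0.129), and neither FFA-SIN comparison passed. Psma1 and Psma2 rose in FFA and in FFA-SIN against NC (log2FC 0.10 to 0.17), and Psma7 passed only between FFA and NC (log2FC 0.10, adjusted p = 0.0266), a call lost in 8 of 17 alternatives. Psma2 lost its calls in 4 alternatives for FFA and 5 for FFA-SIN. Summed over the 7 alpha genes, the level was 316 ± 7.68 FPKM in NC, 344 ± 4.42 FPKM in FFA and 326 ± 6.72 FPKM in FFA-SIN (SD, n = 3).

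Among the beta subunits, 5 of 7 rose between FFA and NC, 6 of 7 between FFA-SIN and NC, and 0 changed between FFA-SIN and FFA (limma, 1 at an unadjusted p below 0.05). The catalytic members Psmb5, Psmb6 and Psmb7 carry the chymotrypsin-like, caspase-like and trypsin-like sites. Psmb7 read 26.7, 25.6 and 26.1 FPKM in NC, 30.1, 29.2 and 30.0 FPKM in FFA, and 29.6, 27.8 and 29.2 FPKM in FFA-SIN. NC was wholly below both treated groups, which overlapped each other. The rise was 0.18 ± 0.03 in FFA (log2FC, adjusted p = 0.00112) and 0.14 ± 0.03 in FFA-SIN (adjusted p = 0.003). Its exons overlap those of Nek6 on the opposite strand over 11.8% of its length, and Nek6 had a mean of 13.6 FPKM. The strand setting of the counting is not given in the sources used here.

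Psmb5 had 31.3, 27.2 and 31.5 FPKM in NC, 35.0, 31.6 and 32.8 FPKM in FFA, and 34.4, 33.1 and 37.0 FPKM in FFA-SIN. NC replicate 2 was lowest, and both treated groups lay above NC without overlap. Only the rise of FFA-SIN over NC passed the test (log2FC 0.21 ± 0.06, adjusted p = 0.0194, against 0.14 ± 0.06, adjusted p = 0.11, for FFA over NC), and it was lost without NC replicate 2 (adjusted p = 0.0528), without FFA-SIN replicate 3 (adjusted p = 0.0708) and with no filter on low genes (adjusted p = 0.0657). Psmb6 showed 73.7, 68.5 and 74.9 FPKM in NC, 78.0, 74.2 and 75.5 FPKM in FFA, and 73.0, 71.0 and 75.9 FPKM in FFA-SIN. Its groups overlapped in every comparison, with log2FC between -0.05 and 0.07 and none past the threshold. The 3 catalytic genes thus gave 3 different sets of calls, and differences between them were not tested.

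Psmb3, a structural beta subunit, gave 63.6, 60.6 and 65.0 FPKM in NC, 71.7, 72.9 and 70.9 FPKM in FFA, and 70.7, 70.6 and 71.2 FPKM in FFA-SIN. Every treated library was above every NC library. It rose by 0.19 ± 0.03 in FFA (log2FC, adjusted p = 0.000521) and by 0.17 ± 0.03 in FFA-SIN (adjusted p = 0.000576) against NC. Psmb2, another structural subunit, read 68.3, 66.0 and 68.5 FPKM in NC, 73.5, 77.2 and 76.4 FPKM in FFA, and 69.6, 73.0 and 71.9 FPKM in FFA-SIN. FFA was highest without overlap. It rose in FFA (log2FC 0.16 ± 0.03, adjusted p = 0.00165), its difference between FFA-SIN and FFA just missed the threshold (log2FC -0.08 ± 0.03, adjusted p = 0.0515), and its call between FFA-SIN and NC (log2FC 0.08 ± 0.03, adjusted p = 0.0349) was lost in 9 of 17 alternatives. Psmb1 and Psmb4 rose in FFA and in FFA-SIN against NC (log2FC 0.10 to 0.15). In FFA the call was lost in 4 alternatives for Psmb1 and 8 for Psmb4, and in FFA-SIN in 5 for Psmb4. The summed beta level was 380 ± 16.0 FPKM in NC, 418 ± 2.80 FPKM in FFA and 410 ± 5.73 FPKM in FFA-SIN.

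Several of these genes have near copies elsewhere in the genome, to which reads may be shared. Of the words of 50 bases in the longest transcript, the share also found in transcripts of other genes was 57.1% for Psmb5, 55.8% for Psmb3, 54.5% for Psma5, 26.4% for Psmd2, 25.6% for Psma4 and 22% for Psma3. Over all 45 genes, 9 shared more than 20% of their words and 24 shared 0%. The values of the 9 are less certain than those of the others.

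The 6 ATPases of the base form the ring that unfolds substrates. Between FFA and NC 5 of 6 rose at a median log2FC of 0.13, between FFA-SIN and NC 6 of 6 rose at a median of 0.11, and between FFA-SIN and FFA 0 of 6 changed (limma, 0 also at an unadjusted p below 0.05). Psmc4 read 59.2, 58.5 and 57.8 FPKM in NC, 64.0, 65.7 and 64.7 FPKM in FFA, and 63.4, 63.2 and 64.0 FPKM in FFA-SIN. Every NC library was lower than every treated library, and FFA-SIN lay just below FFA. It rose by 0.14 ± 0.02 in FFA (log2FC, adjusted p = 0.00032) and by 0.12 ± 0.02 in FFA-SIN (adjusted p = 0.000673). Psmc6 had the highest log2FC of the ATPases between FFA-SIN and NC (0.18 ± 0.04, adjusted p = 0.0024). Psmc5, the highest in FPKM, passed only in that comparison (log2FC 0.08, adjusted p = 0.0382). The calls between FFA-SIN and NC were lost in 12 of 17 alternatives for Psmc5 and in 7 each for Psmc1 and Psmc2, and with equal FPKM sums 3 of 6 ATPases passed (adjusted p = 0.142, 0.0871 and 0.175 for Psmc5, Psmc1 and Psmc2). Psmc6 lost its call between FFA and NC in 3 alternatives. Slc39a13, at a mean of 5.76 FPKM, overlaps 8.25% of the length of Psmc3 on the opposite strand.

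The other base genes were the scaffolds Psmd1 and Psmd2 and the ubiquitin receptor Psmd4. Psmd1 had 23.2, 23.1 and 22.6 FPKM in NC, 24.0, 24.2 and 24.7 FPKM in FFA, and 21.6, 21.7 and 21.9 FPKM in FFA-SIN. The 3 groups did not overlap, with FFA highest and FFA-SIN lowest. It rose between NC and FFA (log2FC 0.08 ± 0.02, adjusted p = 0.0188) and fell between FFA and FFA-SIN (log2FC -0.15 ± 0.02, adjusted p = 0.000518), to below NC (log2FC -0.08 ± 0.02, adjusted p = 0.0136). The rise was lost with equal FPKM sums (adjusted p = 0.0907), without NC replicate 3 (0.0681) and without FFA replicate 3 (0.0722).

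Psmd2, which binds ubiquitin and the shuttle factors that carry it, showed 81.8, 76.9 and 81.0 FPKM in NC, 91.05, 86.03 and 86.27 FPKM in FFA, and 85.6, 85.2 and 85.7 FPKM in FFA-SIN. Both treated groups were above NC, by 0.13 ± 0.03 in FFA (log2FC, adjusted p = 0.00659) and 0.10 ± 0.03 in FFA-SIN (adjusted p = 0.0219). Psmd4 gave 49.1, 49.0 and 52.7 FPKM in NC, 53.4, 52.6 and 51.9 FPKM in FFA, and 53.6, 53.0 and 54.2 FPKM in FFA-SIN. NC replicate 3 reached into the FFA range, and only FFA-SIN passed the test against NC (log2FC 0.09 ± 0.03, adjusted p = 0.0253). The remaining ubiquitin receptor of the base, Adrm1, carries another kind of symbol and was not among the 45. It read 27.6, 27.5 and 29.1 FPKM in NC, 27.4, 27.7 and 27.8 FPKM in FFA, and 27.8, 29.2 and 29.7 FPKM in FFA-SIN, with overlapping groups and no call. The calls between FFA-SIN and NC were lost in 5 of 17 alternatives for Psmd2 and in 7 of 17 for Psmd4, among them equal FPKM sums (adjusted p = 0.0655 and 0.11) and leaving out NC replicate 2 (0.0678 and 0.0843).

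The lid genes gave several patterns. Psmd8, a subunit that in yeast is the last to join the lid, had 48.4, 48.1 and 50.3 FPKM in NC, 53.4, 54.4 and 54.5 FPKM in FFA, and 61.9, 59.5 and 63.0 FPKM in FFA-SIN. Each group lay wholly above the one before. It rose in FFA (log2FC 0.14 ± 0.03, adjusted p = 0.00288) and again in FFA-SIN against FFA (log2FC 0.18 ± 0.03, adjusted p = 0.00078), which made it the only one of the 31 subunits to do so. Its mean was 25.6% higher in FFA-SIN than in NC (log2FC 0.32 ± 0.03, adjusted p = 8.38e-06).

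Psmd13, a structural lid subunit, read 28.7, 28.9 and 30.2 FPKM in NC, 33.2, 34.0 and 33.2 FPKM in FFA, and 34.2, 35.3 and 34.3 FPKM in FFA-SIN. NC was lowest and FFA-SIN highest, without overlap. The rise over NC was 0.19 ± 0.03 in FFA (log2FC, adjusted p = 0.000446) and 0.23 ± 0.03 in FFA-SIN (adjusted p = 5.68e-05), while FFA-SIN against FFA did not pass (log2FC 0.05 ± 0.03, adjusted p = 0.209). Sirt3 overlaps 10.1% of its length on the opposite strand, at a mean of 1.55 FPKM.

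Psmd14, the deubiquitinase of the lid, which cuts the ubiquitin chain off an engaged substrate, gave 41.2, 40.8 and 40.4 FPKM in NC, 43.5, 44.4 and 43.9 FPKM in FFA, and 42.5, 41.4 and 40.9 FPKM in FFA-SIN. FFA was above both other groups without overlap, and FFA-SIN overlapped NC. It rose in FFA (log2FC 0.10 ± 0.02, adjusted p = 0.00376) and fell in FFA-SIN against FFA (log2FC -0.08 ± 0.02, adjusted p = 0.0196), and FFA-SIN did not pass against NC (log2FC 0.03 ± 0.02, adjusted p = 0.297). The fall was lost in 4 of 17 alternatives, each with a library left out. Its inactive partner in the lid, Psmd7, passed no test (log2FC -0.01 to 0.00).

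Psmd3, a structural lid subunit, had a mean of 59.6 ± 0.642 FPKM in NC, 58.74 ± 1.01 FPKM in FFA and 55.1 ± 0.518 FPKM in FFA-SIN (SD, n = 3). It fell in FFA-SIN against both FFA (log2FC -0.09 ± 0.02, adjusted p = 0.00729) and NC (log2FC -0.11 ± 0.02, adjusted p = 0.0012). Psmd6, Psmd11 and Psmd12 rose between FFA and NC (log2FC 0.17, 0.10 and 0.13), with Psmd11 lost in 4 alternatives, and of these Psmd6 passed in FFA-SIN against NC (log2FC 0.13, adjusted p = 0.0126). Among the lid genes of the 45, then, Psmd8, Psmd13 and Psmd6 were above NC in FFA-SIN, Psmd3 was below, and 4 did not pass. The lid subunit Sem1 is given with the partner genes.

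**Figure D3:**
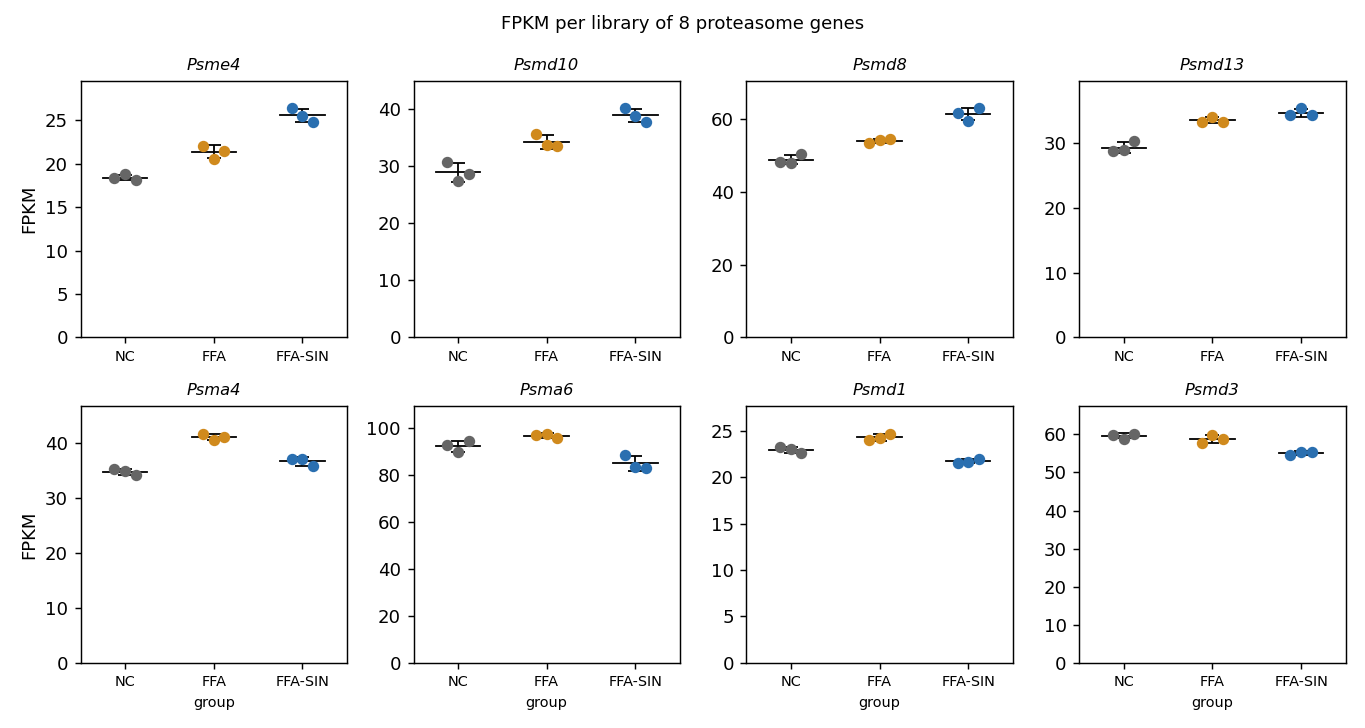
Each panel plots FPKM of a proteasome gene, chosen after its values were seen, with a point per library, a line at the group mean and a bar of 1 SD (n = 3). In the upper row the groups climb from NC to FFA-SIN, and in the lower row the FFA-SIN libraries lie below FFA.

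Summed levels showed the same layers at a coarser grain, weighted toward genes with high FPKM and given without a test. The 14 core genes summed to 712, 669 and 706 FPKM in NC, 770, 757 and 759 FPKM in FFA, and 741, 727 and 740 FPKM in FFA-SIN. The FFA sums were highest and the FFA-SIN sums lay between, without overlap. The base genes summed to 464 ± 9.21 FPKM in NC, 502 ± 2.91 FPKM in FFA and 496 ± 2.52 FPKM in FFA-SIN, and the lid genes to 312 ± 3.16, 332 ± 2.21 and 330 ± 1.41 FPKM. Relative to NC, the FFA mean was 9.55% higher for the core, 8.28% for the base and 6.38% for the lid, and the FFA-SIN mean was 5.81%, 6.88% and 5.93% higher.

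The balance between layers shifted by small amounts, given without a test. The mean FPKM per core gene was 0.964 ± 0.0148 times that per base gene in NC, 0.976 ± 0.00548 in FFA and 0.955 ± 0.0106 in FFA-SIN. Core over lid was 1.27 ± 0.0314, 1.31 ± 0.0193 and 1.27 ± 0.00828, and base over lid was 1.32 ± 0.013, 1.34 ± 0.0167 and 1.33 ± 0.00873. The FFA-SIN libraries lay wholly below the FFA libraries in core over base and in core over lid. The FFA libraries lay just above the NC libraries in core over lid (at least 1.297 against at most 1.294). The other comparisons of these ratios overlapped. Within the core, the ratio of alpha to beta genes was 0.831 ± 0.0167 in NC, 0.825 ± 0.00618 in FFA and 0.793 ± 0.0216 in FFA-SIN. Every FFA-SIN library (0.774 to 0.816) lay below every other library, the lowest of which was an NC library at 0.817.

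**Figure D4:**
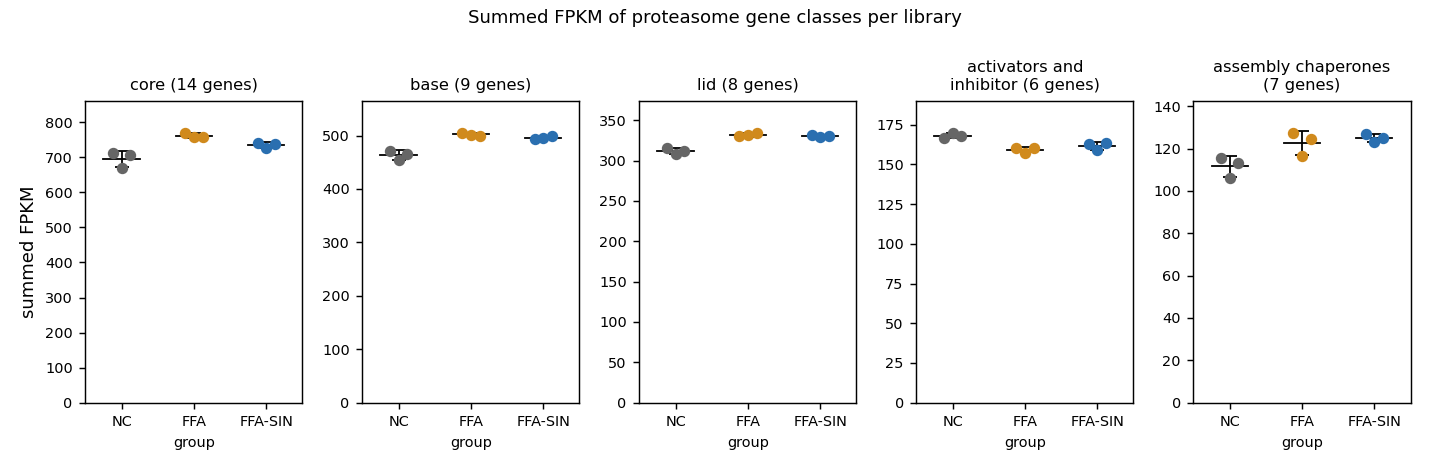
Each panel plots the summed FPKM of a class of proteasome genes, with a point per library, a line at the group mean and a bar of 1 SD (n = 3). Core, base and lid sums are lowest in NC (696, 464 and 312 FPKM), and the activators and inhibitor are highest there (168 FPKM).

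The alternative activators and the inhibitor moved in both directions. Psme4, a large activator that caps the core in place of the regulatory particle and is best known from the nucleus and the testis, read 18.3, 18.8 and 18.1 FPKM in NC, 22.0, 20.6 and 21.5 FPKM in FFA, and 26.4, 25.5 and 24.8 FPKM in FFA-SIN. Every FFA library was above every NC library and every FFA-SIN library above both. It rose by 0.20 ± 0.03 between NC and FFA (log2FC, adjusted p = 0.00097) and by 0.25 ± 0.03 between FFA and FFA-SIN (adjusted p = 0.000339). FFA-SIN stood 38.8% above NC (log2FC 0.45 ± 0.03, adjusted p = 2.69e-06), the highest value of the 45 genes in that comparison.

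Psme3, which forms the nuclear activator ring that works without ubiquitin, had 56.7, 57.2 and 56.7 FPKM in NC, 52.3, 52.1 and 52.7 FPKM in FFA, and 51.0, 51.0 and 53.1 FPKM in FFA-SIN. Both treated groups were below NC and overlapped each other. It fell in FFA (log2FC -0.12 ± 0.02, adjusted p = 0.00197) and in FFA-SIN (log2FC -0.13 ± 0.02, adjusted p = 0.000496) against NC. The interferon-inducible activator subunits Psme1 and Psme2 passed no test (log2FC -0.11 to -0.02).

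Psme2b, a copy of Psme2 that shares 69.3% of its words with other genes, gave 22.2, 30.1 and 24.6 FPKM in NC, 20.4, 18.8 and 19.4 FPKM in FFA, and 23.4, 18.6 and 23.5 FPKM in FFA-SIN. NC replicate 2 was highest, and FFA lay below NC without overlap. Its fall between NC and FFA (log2FC -0.37 ± 0.11, adjusted p = 0.029) was lost in 6 of 17 alternatives, among them without NC replicate 2 (adjusted p = 0.0816). In the same library Psme2 was lowest of NC, and reads may have been divided between the pair. Psme2 and Psme2b together summed to 55.6 ± 1.43 FPKM in NC, 48.7 ± 1.64 FPKM in FFA and 49.3 ± 3.13 FPKM in FFA-SIN. Psmf1, an inhibitor of the core in the test tube, had 8.36 ± 0.204 FPKM in NC, 8.43 ± 0.176 FPKM in FFA and 7.68 ± 0.307 FPKM in FFA-SIN (SD, n = 3). It fell in FFA-SIN against FFA (log2FC -0.12 ± 0.03, adjusted p = 0.0233) and against NC (log2FC -0.11 ± 0.03, adjusted p = 0.0221), calls lost in 4 and 3 of 17 alternatives.

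Of the 7 assembly chaperones, 1 stood apart. Psmd10, which chaperones an ATPase during assembly of the base and is known as an oncoprotein of liver cancer, read 30.7, 27.4 and 28.7 FPKM in NC, 35.5, 33.7 and 33.4 FPKM in FFA, and 40.1, 38.8 and 37.7 FPKM in FFA-SIN. The 3 groups climbed without overlap. It rose between NC and FFA (log2FC 0.24 ± 0.04, adjusted p = 0.00226) and between FFA and FFA-SIN (log2FC 0.18 ± 0.04, adjusted p = 0.0111). FFA-SIN was 34.4% above NC (log2FC 0.41 ± 0.04, adjusted p = 3.65e-05). Psmg2, which helps to build the alpha ring, had 18.9 ± 0.324 FPKM in NC, 19.4 ± 0.293 FPKM in FFA and 17.6 ± 0.796 FPKM in FFA-SIN. It fell in FFA-SIN against FFA (log2FC -0.13 ± 0.03, adjusted p = 0.0115) and against NC (log2FC -0.10 ± 0.03, adjusted p = 0.0221), the second lost in 4 of 17 alternatives. Psmg1, Psmg3, Psmg4, Psmd5 and Psmd9 passed no test, with Psmg4 at a log2FC of 0.19 ± 0.10 between FFA and NC (adjusted p = 0.182). Psmc3ip passed none either (log2FC -0.05 to 0.06).

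Partner genes outside the Psm names are given by list, each count to be read against the share of all tested genes that rose and fell, which was 19.1% and 18.4% between FFA and NC, 13.9% and 17.3% between FFA-SIN and FFA, and 24.7% and 26.5% between FFA-SIN and NC. Of 11 other proteasome proteins, 1 rose between FFA and NC (median log2FC 0.04), 2 rose and 2 fell between FFA-SIN and FFA (0.02), and 4 rose and 1 fell between FFA-SIN and NC (0.05). Sem1, a small lid subunit, had 14.3 ± 0.824 FPKM in NC, 16.2 ± 0.547 FPKM in FFA and 16.4 ± 0.565 FPKM in FFA-SIN, and rose in both treated groups against NC (log2FC 0.17 ± 0.04, adjusted p = 0.0153, and 0.19 ± 0.04, adjusted p = 0.00555). Ecpas, an adaptor that binds proteasomes, did not pass between FFA and NC (log2FC 0.09, adjusted p = 0.0854). It was higher in FFA-SIN than in NC (log2FC 0.13 ± 0.03, adjusted p = 0.0116). Akirin2, which carries proteasomes into the nucleus, rose in FFA-SIN against FFA (log2FC 0.11 ± 0.03, adjusted p = 0.0132). Zfand5, a proteasome-binding protein that speeds degradation, fell from 18.7 ± 0.178 FPKM in FFA to 16.8 ± 0.288 FPKM in FFA-SIN (log2FC -0.14 ± 0.02, adjusted p = 0.001), and also against NC (log2FC -0.18 ± 0.02, adjusted p = 9.61e-05).

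The interferon-induced catalytic subunit Psmb10, which can replace Psmb7 in newly built cores, moved the other way from the complex. It read 11.9, 12.1 and 11.6 FPKM in NC, 8.81, 8.70 and 9.57 FPKM in FFA, and 10.03, 10.93 and 10.96 FPKM in FFA-SIN. NC was highest and FFA lowest, without overlap. It fell in FFA (log2FC -0.36 ± 0.04, adjusted p = 0.000187) and rose in FFA-SIN against FFA (log2FC 0.22 ± 0.04, adjusted p = 0.00429), still below NC (log2FC -0.14 ± 0.04, adjusted p = 0.0184). Psmb8 and Psmb9 were not analysed here.

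Of the 8 genes of the NFE2L1 axis, 5 fell and 0 rose between FFA and NC by limma, where 18.4% and 19.1% of all genes did, and the counts at an unadjusted p below 0.05 were the same (median log2FC -0.15), 3 rose between FFA-SIN and FFA (0.04), and 1 rose and 3 fell between FFA-SIN and NC (-0.05). The members that fell in FFA included Mafk and Maff, small Maf proteins that pair with NFE2L1 and NFE2L2 on DNA. Mafk had 11.2 ± 0.214 FPKM in NC, 8.67 ± 0.243 FPKM in FFA and 9.22 ± 0.103 FPKM in FFA-SIN, and fell against NC in both treated groups (log2FC -0.34 ± 0.03, adjusted p = 1.77e-05, and -0.26 ± 0.03, adjusted p = 4.66e-05). Maff went from 19.4 ± 0.782 FPKM in NC to 15.8 ± 0.438 FPKM in FFA (log2FC -0.28 ± 0.03, adjusted p = 0.000134) and was 18.6 ± 0.0498 FPKM in FFA-SIN, a rise over FFA (log2FC 0.23 ± 0.03, adjusted p = 0.000526). Mafg likewise fell between NC and FFA (log2FC -0.14 ± 0.03, adjusted p = 0.00473) and rose in FFA-SIN against FFA (log2FC 0.17, adjusted p = 0.00195). Its FFA-SIN level did not pass against NC (log2FC 0.03, adjusted p = 0.435). Bach1, a repressor that competes for the same sites, fell against NC in FFA (log2FC -0.26 ± 0.03, adjusted p = 0.000275) and in FFA-SIN (log2FC -0.34 ± 0.03, adjusted p = 2.51e-05), with no call between FFA-SIN and FFA (log2FC -0.08, adjusted p = 0.109). Ddi2, the remaining one of the 5, was below NC in FFA (log2FC -0.17 ± 0.03, adjusted p = 0.00473) and in FFA-SIN (log2FC -0.17 ± 0.03, adjusted p = 0.0026). It did not pass between FFA-SIN and FFA (adjusted p = 0.937).

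Nfe2l1 itself, singled out after its values were seen, had 52.2 ± 0.712 FPKM in NC, 52.9 ± 1.26 FPKM in FFA and 58.1 ± 0.980 FPKM in FFA-SIN. It did not pass between FFA and NC (log2FC 0.02 ± 0.02, adjusted p = 0.535) and rose between FFA and FFA-SIN (log2FC 0.13 ± 0.02, adjusted p = 0.00243). Its part in the changes of the subunits was not tested. Its protein is activated by processing after translation, which RNA levels do not show. Nfe2l2 passed no test (log2FC -0.01 to 0.01).

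Among the 6 genes of ubiquitin and its activating enzymes, 1 fell between FFA and NC, 2 rose and 2 fell between FFA-SIN and FFA, and 0 changed between FFA-SIN and NC (limma, 1 at an unadjusted p below 0.05), with medians of 0.01, -0.01 and 0.02. Rps27a, which encodes a ubiquitin fused to a ribosomal protein, read 177, 126 and 161 FPKM in NC, 78.9, 71.4 and 115 FPKM in FFA, and 189, 175 and 175 FPKM in FFA-SIN. FFA was lowest without overlap, the fall was 0.82 on the log2 scale (log2FC -0.82 ± 0.17, adjusted p = 0.00468), and the rise back was 1.05 ± 0.17 (adjusted p = 0.00138). The gene has processed copies that can share its reads, so this value is uncertain. Uba1, the main activating enzyme, fell slightly between FFA and FFA-SIN (log2FC -0.06 ± 0.02, adjusted p = 0.0223).

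Of the 11 shuttle factors and partners of the VCP segregase, 1 rose and 1 fell between FFA and NC, and 1 rose and 4 fell in each FFA-SIN comparison, with medians of -0.02, -0.04 and -0.05. Ubqln2, which carries tagged proteins to the proteasome, rose from 23.4 ± 0.327 FPKM in NC to 25.2 ± 0.619 FPKM in FFA (log2FC 0.11 ± 0.02, adjusted p = 0.00651) and fell to 22.5 ± 0.137 FPKM in FFA-SIN (log2FC -0.16 ± 0.02, adjusted p = 0.000745). Ubqln4, a relative of it, fell against NC in FFA (log2FC -0.12 ± 0.03, adjusted p = 0.00584) and in FFA-SIN (log2FC -0.20 ± 0.03, adjusted p = 0.000133). Nsfl1c, a cofactor of VCP, fell in FFA-SIN against FFA (log2FC -0.13 ± 0.02, adjusted p = 0.00317) and against NC (log2FC -0.12 ± 0.02, adjusted p = 0.00199).

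Promoters were searched for the core of the antioxidant response element, the site bound by NFE2L1 and NFE2L2 with small Maf proteins, because members rose together between FFA and NC. RefSeq windows from 250 bases before to 50 bases after the start (GRCm38.p6) were matched for 38 of the 45 genes. The letters TGACNNNGC, on either strand, occurred in 6 of the 38 (15.8%), namely Psmb5, Psmb6, Psmc6, Psmd12, Psmd9 and Psme4, and in 14% of the 27025 genes with a window. The CCAAT box, on either strand and searched separately, occurred in 13 of the 38 (34.2%) and in 41.1% of all genes with a window, and 5 of the 13 were alpha subunits. The share of proteasome genes with either motif was thus near that of all genes. Psmb1, Psmb2, Psmb7, Psmc3, Psmd3, Psmd7 and Psmg2 had no window.

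The 4 promoters below hold the first motif and belong to the genes with the smallest adjusted p among the 6. Each runs 5′ to 3′ on the strand of its gene, from 250 bases before to 20 bases after the start, with the motif in capitals. They come from chr11:30771525-30771794 on the plus strand (Psme4), chr14:45329574-45329843 on the plus strand (Psmc6), chr11:107479278-107479547 on the plus strand (Psmd12) and chr14:54617976-54618245 on the minus strand (Psmb5).
Psme4: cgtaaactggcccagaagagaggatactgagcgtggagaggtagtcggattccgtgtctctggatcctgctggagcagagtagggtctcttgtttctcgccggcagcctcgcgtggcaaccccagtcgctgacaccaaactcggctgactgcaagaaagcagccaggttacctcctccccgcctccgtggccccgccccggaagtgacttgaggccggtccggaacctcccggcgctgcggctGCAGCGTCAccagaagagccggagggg
Psmc6: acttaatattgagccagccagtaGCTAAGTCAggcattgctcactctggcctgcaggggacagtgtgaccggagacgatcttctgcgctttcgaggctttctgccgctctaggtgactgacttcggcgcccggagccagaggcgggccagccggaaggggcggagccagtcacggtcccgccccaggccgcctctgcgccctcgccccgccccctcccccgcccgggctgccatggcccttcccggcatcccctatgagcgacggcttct
Psmd12: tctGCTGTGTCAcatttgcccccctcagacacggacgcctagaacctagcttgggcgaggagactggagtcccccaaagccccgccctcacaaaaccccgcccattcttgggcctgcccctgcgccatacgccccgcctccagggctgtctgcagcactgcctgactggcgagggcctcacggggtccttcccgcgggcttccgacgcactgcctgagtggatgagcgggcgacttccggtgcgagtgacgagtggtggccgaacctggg
Psmb5: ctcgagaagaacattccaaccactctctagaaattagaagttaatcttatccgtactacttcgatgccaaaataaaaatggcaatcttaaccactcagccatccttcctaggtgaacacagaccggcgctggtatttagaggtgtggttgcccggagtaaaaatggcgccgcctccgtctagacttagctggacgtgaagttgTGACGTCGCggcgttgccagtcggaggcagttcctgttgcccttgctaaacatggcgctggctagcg

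In Psme4 the motif begins 7 bases before the start and lies on the opposite strand, where it reads TGACGCTGC. In Psmc6 and Psmd12 it also lies on the opposite strand, 227 and 247 bases before the start, as TGACTTAGC and TGACACAGC. In Psmb5 it reads TGACGTCGC on the strand of the gene, 47 bases before the start. Psme4 rose at both steps, and Psmc6 rose against NC in both treated groups. Psmd12 passed only between FFA and NC, and Psmb5 passed only between FFA-SIN and NC. Among the 6 genes with the motif 3 rose between FFA and NC, at a median log2FC of 0.13, and among the 32 without it 18 rose and 2 fell, at a median of 0.10. A match of letters is not evidence of binding.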

How the data were processed

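Total RNA libraries of AML12 cells (9 in all) were compared. Per the labels, the mirVana kit gave the RNA and a stranded TruSeq kit the libraries. The submitters' processing notes name Trimmomatic, HISAT2 and GRCm39. Not given in the sources used here are versions, counting tool, annotation and strand setting. The authors deposited FPKM, a unit the table does not name and that was read from its values. Once depth and the reference gene length were divided out, 27090 genes (89.3%) gave whole reads within 0.01. For the other genes a divisor was searched from the values themselves, which is easily found where few values are above 0. With those included, 99.66% of 205016 values above 0 were whole.

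Symbols and lengths came from GENCODE vM21, matched by identifier for 28734 genes (94.7%). Genes whose mean reached 1 FPKM were fitted with limma 3.58.1 (R 4.3.3) on log2(FPKM + 1), with all 9 libraries in a single fit and a variance trend, as planned for FPKM. The log scale understates changes of low genes. P-values were adjusted by Benjamini and Hochberg over all 11659 genes of a comparison at a threshold of 0.05. The fit was tested on simulated data with independent noise for each gene. That test does not bear on shifts shared by genes within a library. Percent changes are ratios of mean FPKM. Other settings were another pseudocount, no filter, 3 other scalings, no variance trend, a replicate block, each library left out, and trends on length and GC content removed, the last chosen after seeing the data.

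The members, gene lists and tests were chosen with earlier results of these data known. Values per library were given for the catalytic subunits Psmb5, Psmb6 and Psmb7, the deubiquitinase Psmd14, the receptors Psmd2, Psmd4 and Adrm1, for Psma3, for the smallest adjusted p of each class and for the 2 highest and 2 lowest log2FC per comparison. Partner lists gave their 2 smallest adjusted p per comparison, except for a few genes not reported here. Rps27a, Psmb10 and Psmd3, Psmf1, Psmg2, Nfe2l1 and Ddi2 were described further after their values were seen. Protein sequences were not used here.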

Additional observations from a re-analysis of the deposited data

How the results depend on the processing

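No member reversed direction between a called value and any of 17 alternatives, 9 of which left out a library. Of the called members, 19 of 27 kept their call in every alternative between FFA and NC, 8 of 10 between FFA-SIN and FFA, and 17 of 29 between FFA-SIN and NC. The counts that moved most were those of members higher in FFA-SIN than in NC (23), which became 15 with no filter, 14 with equal FPKM sums and 15 to 23 with a library left out, lowest without NC replicate 2. For the 31 subunits of the complete complex the same count (21) became 13, 12 and 13 to 21. Members lower in FFA than in NC (2) became 1 with no filter, 1 with a replicate block and 1 to 2 with a library left out. The causes were not tested. Subunits higher in FFA than in NC (23) ranged from 18 to 24, with 0 lower throughout.

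Over all tested genes, the deviations of same-numbered libraries correlated at -0.015 to 0.174, and not every pair exceeded 0.1, so the numbers were not taken to pair the samples, although replicate 2 was most often lowest for the members in each group. With the replicate block 28, 10 and 29 members were called in the 3 comparisons, against 27, 10 and 29 without it.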
